A study of Mus musculus with 6 samples.

Results

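Transcripts of 10 genes of the lymphotoxin, RANKL, BAFF and TNF receptor axis were followed in stromal cells of mouse hindlimb muscle and lymph node. The genes were taken by symbol from the deposited count table of 52997 genes, and all 10 had a row and at least 1 count. They were the receptor genes Ltbr, Tnfrsf1a and Tnfrsf1b, the ligand and cytokine genes Tnfsf11, Tnfsf13b and Il7, the decoy receptor gene Tnfrsf11b, and the signalling genes Map3k14, Traf2 and Traf3. Each library came from 1000 sorted mesenchymal stromal cells of C57BL/6 mice aged 8 weeks, with no treatment named in the labels. There were 3 libraries from hindlimb skeletal muscle and 3 from lymph nodes, which combined inguinal, axillary, brachial and cervical sites. The submitters call the libraries of a tissue biological replicates, but a pair of muscle sample titles share a number, so whether they came from separate animals is not known here. P-values therefore measure the spread between these libraries, which may in part be technical. No source used here names the surface markers of the sort.

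Stromal cells of lymphoid tissue receive lymphotoxin through the lymphotoxin beta receptor and tumour necrosis factor (TNF) through 2 receptors. The lymphotoxin beta receptor acts mainly through the kinase NIK, encoded by Map3k14, which the adaptors TRAF2 and TRAF3 hold at a low level until a receptor is engaged. NIK then starts the non-canonical branch of NF-kB signalling, while TNF mainly starts the canonical branch. In lymph nodes such stromal cells are known to make RANKL (Tnfsf11), the B cell survival factor BAFF (Tnfsf13b) and interleukin-7 (Il7), which lymphocytes need. Osteoprotegerin (Tnfrsf11b) is a secreted decoy that binds RANKL.

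Total counts were between 415460 and 1844874 in the muscle libraries and between 1851940 and 2397134 in the lymph node libraries. All 11 stromal markers, among them Pdgfra, Pdpn and Col1a1, had counts in each library. Muscle library 4 was the shallowest and differed most from the others of its tissue (Pearson r of log2 CPM across genes 0.698 and 0.694, against 0.95 between muscle libraries 2 and 3). It had the highest sums of leukocyte, B cell, T cell and myeloid markers. The 6 leukocyte markers, all detected in it, summed to between 24.8 and 1753 CPM in the muscle libraries, with library 4 the highest, and to between 27.8 and 48.0 CPM in the lymph node libraries. B cell markers (7 of 7 detected in library 4) spanned 30.1 to 1874 CPM in muscle and 15.4 to 260 CPM in lymph node, and T cell markers (8 of 8) 10.6 to 427 CPM and 2.28 to 10.9 CPM. Myeloid markers spanned 11.5 to 172 CPM in muscle and 21.1 to 30.1 CPM in lymph node, and Csf1r, Cd68, Itgam and C1qa were at 0 in library 4. Endothelial markers spanned 236.5 to 381 CPM in muscle and 271 to 348 CPM in lymph node, most of it from Tek. Mural cell markers spanned 64.4 to 75.3 CPM and 33.7 to 49.7 CPM, and muscle fibre and satellite cell markers 16.1 to 71.5 CPM and 9.88 to 11.4 CPM, muscle before lymph node. Results for the 10 genes are therefore given with and without muscle library 4.

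None of the 8 members with enough counts to test was called different between muscle and lymph node. Levels are given as CPM, counts scaled to a common library size with a correction for composition (TMM), and differences as log2 fold changes of muscle minus lymph node from edgeR's quasi-likelihood test. A gene was called at a Benjamini-Hochberg adjusted p under 0.05 over all genes tested. With all 6 libraries 0 of 8 members were called, where 4.32% of all 10823 tested genes were. At an unadjusted p under 0.05 there was 1 of 8 (Tnfrsf1a), beside 15.1% of all genes. DESeq2 and limma-voom called 0 as well, each with 1 of 8 at an unadjusted p under 0.05 (Tnfrsf1a). With muscle library 4 left out, again 0 of 8 were called, beside 12.4% of 11246 genes, and 4 of 8 had an unadjusted p under 0.05 (Tnfrsf1a, Tnfsf13b, Traf2 and Il7), beside 23.3%. Beside those shares, 0 of 8 is no result about the members. The median log2 fold change was -0.32 over the 8 members and 0.02 over all tested genes. Without muscle library 4 these medians were -0.17 and 0.007. In these bulk samples, fewer cells of a type and less RNA per cell cannot be told apart.

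**Figure D1:**
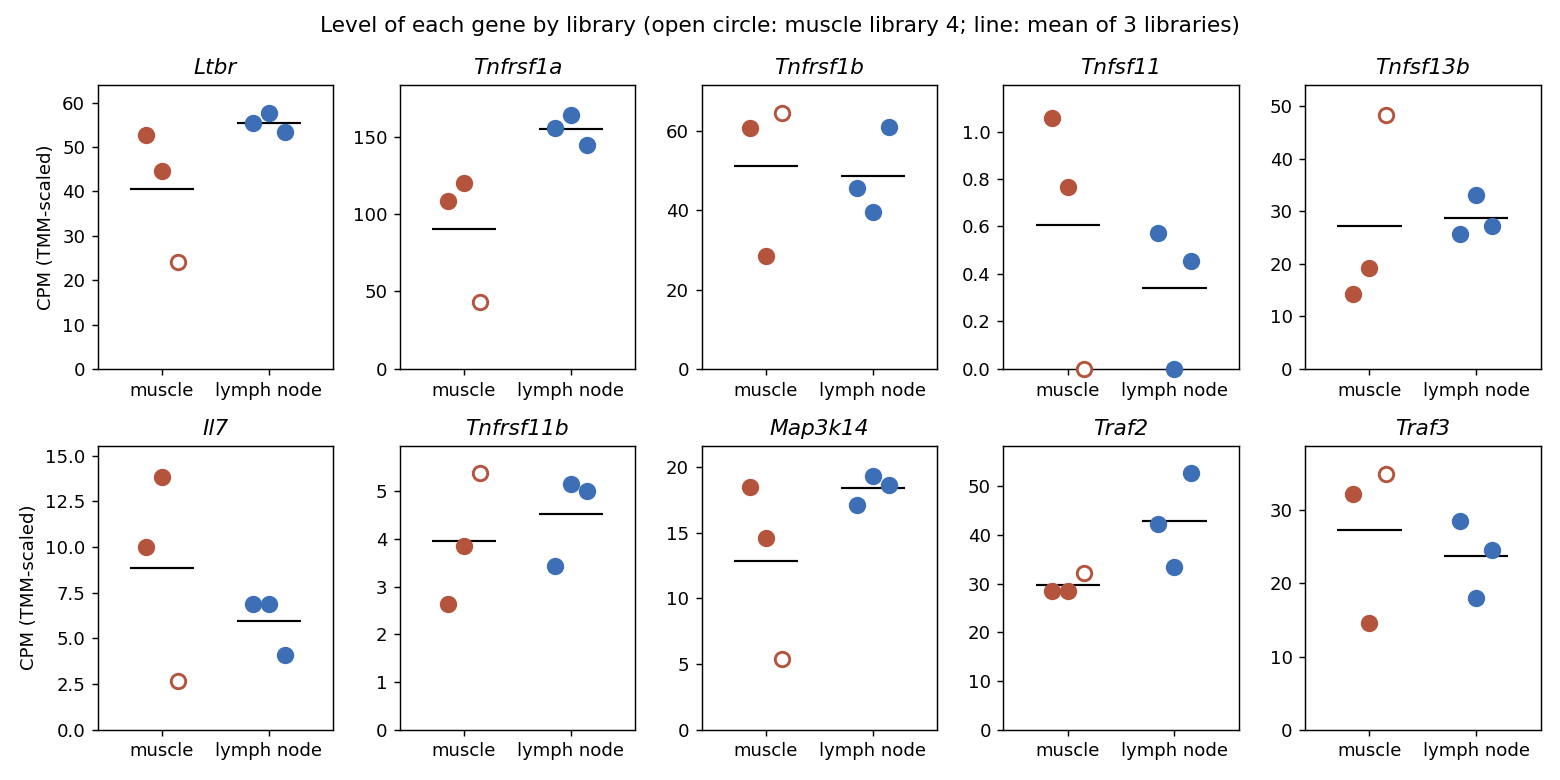
Level of each of the 10 genes in CPM (TMM-scaled, linear axes starting at 0), 3 muscle libraries left and 3 lymph node libraries right, with the mean as a line and muscle library 4 as an open circle. Tnfrsf1a lay between 43.0 and 119.9 CPM in muscle and between 145 and 164 CPM in lymph node, whereas Tnfsf13b in muscle library 4, at 48.4 CPM, lay above all other libraries.

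Among the receptors, Tnfrsf1a, which encodes TNF receptor 1, the main TNF receptor of non-immune cells, was the member with the smallest p with all 6 libraries. It measured 108, 119.9 and 43.0 CPM in muscle libraries 2, 3 and 4, and 155, 164 and 145 CPM in lymph node libraries 1, 2 and 3. The muscle libraries all lay below the lymph node libraries, and library 4 lay far below the other muscle libraries. The log2 fold change was -0.71 ± 0.30 (SE, edgeR unadjusted p = 0.0438, adjusted p = 0.31), with a 95% interval from -1.39 to -0.02. Without muscle library 4 it was -0.45 ± 0.15 (adjusted p = 0.0649), with an interval from -0.77 to -0.13. That interval corresponds to levels in muscle of 0.587 to 0.912 times those in lymph node.

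Ltbr, the lymphotoxin beta receptor gene (chromosome 6, 125306571 to 125313885, GRCm38, near Tnfrsf1a at 125349362 to 125362484 on the same chromosome), was detected in every library. It measured 52.7, 44.6 and 24.2 CPM in muscle libraries 2, 3 and 4, and 55.4, 57.6 and 53.3 CPM in lymph node libraries 1, 2 and 3. The lowest lymph node library lay just above the highest muscle library, and with scaling to total counts alone the tissues overlapped, at up to 54.2 CPM in muscle and down to 50.9 CPM in lymph node. The log2 fold change was -0.36 ± 0.26 (edgeR adjusted p = 0.61), and without muscle library 4 -0.19 ± 0.18 (adjusted p = 0.627), with an interval from -0.58 to 0.21. A fall of Ltbr in muscle below 0.669 times the lymph node level thus lay outside that interval, which rests on 2 muscle libraries. With all 6 libraries the interval was wider, from -0.95 to 0.23, and reached down to 0.517 times.

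Tnfrsf1b (chromosome 4, 145213463 to 145246870), which encodes TNF receptor 2, a receptor also common on lymphocytes, varied as much within as between tissues. Levels were 60.7, 28.4 and 64.5 CPM in muscle libraries 2, 3 and 4, and 45.7, 39.5 and 61.0 CPM in lymph node libraries 1, 2 and 3. The range of the lymph node libraries lay inside that of the muscle libraries. The difference was 0.03 ± 0.33 on the log2 scale (edgeR adjusted p = 0.986), with an interval from -0.72 to 0.77. Leaving out muscle library 4 gave -0.10 ± 0.28, and its sign differed between alternatives.

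Among the ligands, Tnfsf13b, the gene of BAFF (chromosome 8, 10006467 to 10039072), depended on muscle library 4. It measured 14.2 and 19.2 CPM in muscle libraries 2 and 3, 48.4 CPM in muscle library 4, against 25.7, 33.1 and 27.3 CPM in lymph node libraries 1, 2 and 3. Muscle libraries 2 and 3 lay below, and muscle library 4 above, every lymph node library. With all libraries the log2 fold change was -0.30 ± 0.43 (edgeR adjusted p = 0.82). Leaving out muscle library 4, the levels were 16.8 ± 3.47 CPM in muscle (SD, n = 2) and 28.9 ± 3.85 CPM in lymph node (SD, n = 3), a log2 fold change of -0.81 ± 0.28 (edgeR unadjusted p = 0.0106, adjusted p = 0.0747), with an interval from -1.40 to -0.22. Myeloid cells are known to make BAFF. In muscle library 4 the myeloid markers summed to 172 CPM, with 4 of 9 at 0, and the leukocyte gene Ptprc, which encodes CD45, had 219 counts, against 14 and 12 in muscle libraries 2 and 3 and 8 to 21 in the lymph node libraries. The part of these cells in the BAFF level of that library was not tested.

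Il7 (chromosome 3, 7569994 to 7613760) encodes interleukin-7, the survival factor of naive T cells. Of its exon length 1.85% overlaps the antisense gene Gm16685, and without a stated strand setting reads there cannot be told apart. It had 19, 18 and 1 counts in muscle libraries 2, 3 and 4, and 12, 16 and 9 counts in lymph node libraries 1, 2 and 3. In CPM these were 10.02, 13.8 and 2.69 in muscle and 6.85, 6.87 and 4.10 in lymph node, so that muscle libraries 2 and 3 lay above, and library 4 below, all lymph node libraries. The single count in library 4 lay under that library's floor of 3 counts, or 8.06 CPM. The log2 fold change was 0.75 ± 0.53 (edgeR adjusted p = 0.596). Without muscle library 4 it was 0.98 ± 0.44 (unadjusted p = 0.0427, adjusted p = 0.193), with an interval from 0.04 to 1.92. A 2-fold difference in Il7 in favour of muscle thus lay inside the interval, as did one close to 0.

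Tnfsf11, the gene of RANKL (chromosome 14, 78277445 to 78308043), was at the limit of detection in both tissues. It had 2, 1 and 0 counts in muscle libraries 2, 3 and 4, and 1, 0 and 1 counts in lymph node libraries 1, 2 and 3. Summed over a tissue these were 3 counts in muscle and 2 in lymph node. The lymph node sum lay below, and the muscle sum at, a floor of 3 counts over the tissue, which is 0.841 CPM in the muscle libraries against 0.478 CPM in the lymph node libraries, so a difference was not detectable at this depth. Without muscle library 4, which had no count, the levels were 1.06 and 0.77 CPM in muscle, above the 0.58, 0 and 0.46 CPM in lymph node, still from 1 or 2 counts a library. Its receptor gene Tnfrsf11a, which encodes RANK, had 4, 4 and 2 counts in the muscle libraries and 0, 2 and 2 in the lymph node libraries.

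The decoy receptor gene Tnfrsf11b (chromosome 15, 54250619 to 54278484) had few counts too, but had them in every library. There were 5, 5 and 2 in muscle libraries 2, 3 and 4, and 6, 12 and 11 in lymph node libraries 1, 2 and 3, or 3.95 ± 1.37 CPM in the muscle libraries against 4.53 ± 0.96 CPM in the lymph node libraries (SD, n = 3 each). The tissues overlapped, and the ratio of summed counts, scaled by library size, was 0.728 (exact 95% counting interval 0.338 to 1.47), and 0.674 (0.293 to 1.42) without muscle library 4. Osteoprotegerin counts exceeded RANKL counts in all 6 libraries. The log2 ratio of Tnfsf11 to Tnfrsf11b counts within a library, with 0.5 added to each, was -1.78 ± 0.60 in muscle and -3.23 ± 1.29 in lymph node (SD, n = 3 each). The difference was 1.46 (exact permutation test, two-sided, p = 0.2), and the ratios of the tissues overlapped. With 3 against 3 libraries no p below 0.1 is possible, so this test could not decide. The difference rests on 0 to 2 RANKL counts per library. The difference was 1.73 without muscle library 4 (exact permutation p = 0.2).

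**Figure D2:**
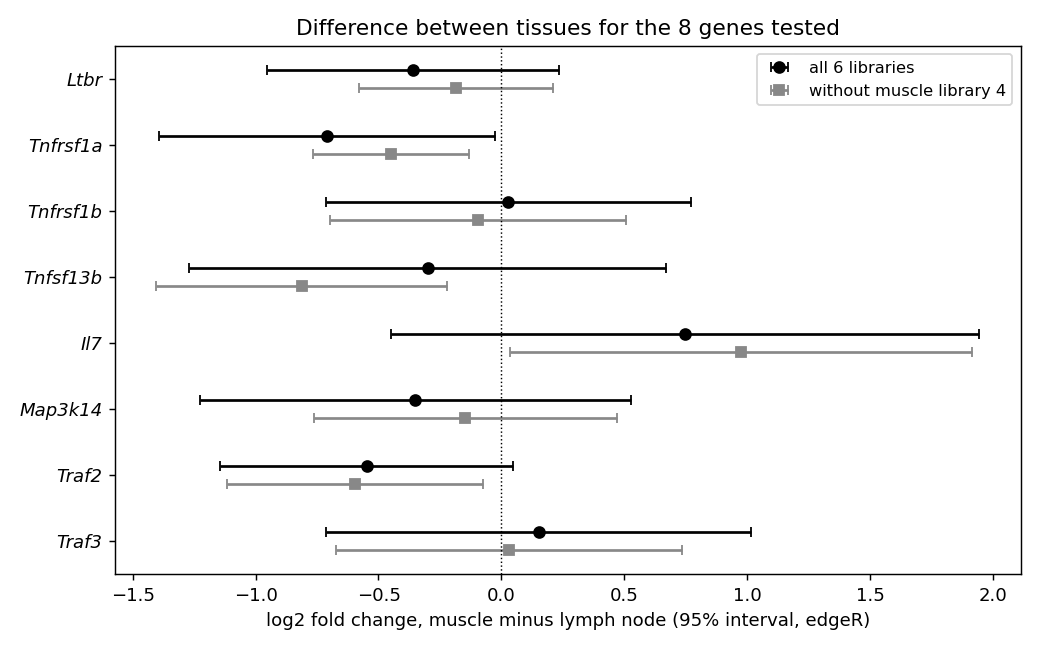
Log2 fold change of muscle minus lymph node with its 95% interval from edgeR, for the 8 members tested, with all 6 libraries (black circles) and without muscle library 4 (grey squares). The interval of Tnfrsf1a lay below 0 in both fits, those of Tnfsf13b and Traf2 lay below 0 and that of Il7 above 0 without muscle library 4, and no adjusted p was under 0.05.

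Of the signalling members, Traf2 (chromosome 2, 25517982 to 25546940), an adaptor of TNF receptors, measured 28.5, 28.4 and 32.3 CPM in muscle libraries 2, 3 and 4. In lymph node libraries 1, 2 and 3 it measured 42.3, 33.5 and 52.8 CPM. All muscle libraries lay below all lymph node libraries, and muscle library 4 was here close to the other muscle libraries. The log2 fold change was -0.55 ± 0.27 (edgeR adjusted p = 0.384), and without muscle library 4 -0.60 ± 0.24 (unadjusted p = 0.028, adjusted p = 0.146).

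Map3k14, the gene of NIK (chromosome 11, 103219762 to 103267472), measured 18.5, 14.6 and 5.38 CPM in muscle libraries 2, 3 and 4, and 17.1, 19.3 and 18.7 CPM in lymph node libraries 1, 2 and 3. Muscle library 4, with 2 counts and so under its floor of 3, lay apart, and the other muscle libraries overlapped with lymph node. The log2 fold change was -0.35 ± 0.39 (edgeR adjusted p = 0.761), and -0.15 ± 0.29 without muscle library 4. Of its exon length 2.06% overlaps 1700028N14Rik, so reads there are uncertain. Traf3 (chromosome 12, 111166370 to 111267153), the adaptor through which NIK is degraded in resting cells, measured 32.2, 14.6 and 34.9 CPM in muscle libraries 2, 3 and 4, and 28.6, 18.04 and 24.6 CPM in lymph node libraries 1, 2 and 3. Muscle library 3 gave the lowest value and muscle libraries 2 and 4 the highest ones, so the muscle range enclosed that of lymph node (0.15 ± 0.38, adjusted p = 0.913, and 0.03 ± 0.33 without muscle library 4).

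Groups that did not overlap were read against all genes. Ltbr, Tnfrsf1a and Traf2 were lower in every muscle library than in any lymph node library, 3 of the 8 members tested, as were 13.7% of all tested genes, and 0 of 8 were higher throughout, as were 9.93%. When muscle library 4 was left out Tnfsf13b joined them, making 4 of 8 beside 20.4% of all genes, and Il7 was higher throughout, 1 of 8 beside 19.3%. The members were not drawn at random and 8 is few, so these shares describe the genes and no more.

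Levels of different members were compared per kilobase of exon, from GENCODE M21 exon lengths between 2.24 kb (Tnfsf11) and 7.35 kb (Traf3). The order was led by the 3 receptors in both tissues. Tnfrsf1a averaged 34.9 ± 16.0 CPM per kb in muscle and 59.7 ± 3.66 in lymph node, Ltbr 17.2 ± 6.25 and 23.5 ± 0.91, and Tnfrsf1b 13.4 ± 5.19 and 12.8 ± 2.90 (SD, n = 3 each). Traf2 followed at 5.83 ± 0.43 CPM per kb in muscle and 8.40 ± 1.90 in lymph node. Then came Tnfsf13b (3.97 ± 2.69 and 4.18 ± 0.56), Traf3 (3.71 ± 1.501 and 3.23 ± 0.72) and Map3k14 (1.96 ± 1.03 and 2.81 ± 0.17), muscle before lymph node in each pair. Il7 (1.56 ± 1.00 and 1.05 ± 0.28) and Tnfrsf11b (1.40 ± 0.49 and 1.61 ± 0.34) held the next places, Tnfrsf11b ahead of Il7 in lymph node, and Tnfsf11 was last at 0.27 ± 0.24 and 0.15 ± 0.14. In lymph node, neighbours in this order overlapped between libraries for Tnfrsf1b and Traf2, for Tnfsf13b and Traf3, and for Traf3 and Map3k14. In muscle all neighbours overlapped except Tnfrsf1b with Traf2 and Tnfrsf11b with Tnfsf11.

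**Figure D3:**
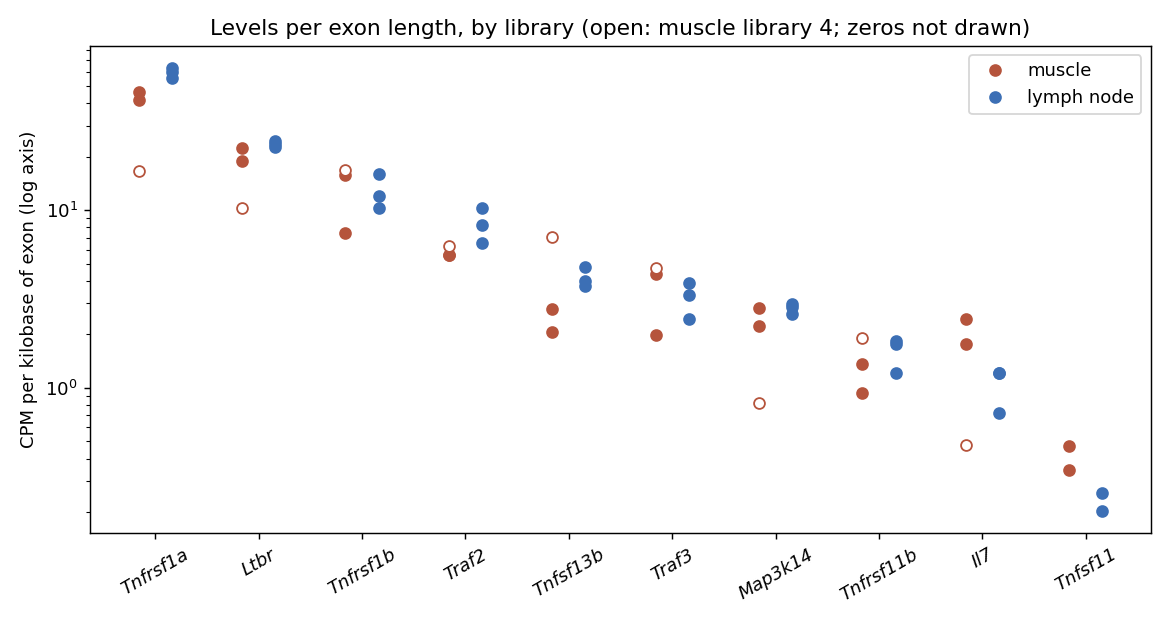
CPM per kilobase of exon (log axis) for each gene, muscle libraries left and lymph node libraries right of each position, genes ordered by their lymph node mean, and muscle library 4 as open circles. The 3 receptor genes stood highest and Tnfsf11 lowest in both tissues, and the 2 libraries with 0 Tnfsf11 counts cannot be drawn on a log axis.

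The other genes of the pathway were read from lists that do not contain the 10 members. Transcripts of the ligands that bind LTBR and the TNF receptors were scarce, except for Ltb in muscle library 4. Ltb, the membrane-bound lymphotoxin subunit made by lymphocytes, had 1, 4 and 23 counts in muscle libraries 2, 3 and 4, and 2, 7 and 2 in lymph node libraries 1, 2 and 3. In muscle library 4, which held the most leukocyte transcripts, this was 61.8 CPM, against 0.53 and 3.07 CPM in muscle libraries 2 and 3. Lta, the other lymphotoxin subunit, had 0 counts in muscle and 7 over the lymph node libraries. Tnf had 0 counts in muscle against 1 in lymph node, and Tnfsf14, which encodes the LTBR ligand LIGHT, had 2 against 3. Tnfrsf13c, the BAFF receptor of B cells, had 1 count in muscle and 2 counts in lymph node libraries. Tnfrsf13b, another BAFF receptor gene, had 2, 3 and 12 counts in muscle libraries 2, 3 and 4, and 0, 1 and 1 in lymph node libraries 1, 2 and 3. Of the 16 TNF superfamily ligands other than the members, Tnf, Lta, Ltb and Tnfsf14 among them, 3 passed the filter on low counts. By edgeR 0 of 3 were called, with 0 at an unadjusted p under 0.05. Of the 24 receptors of the family other than the members, Tnfrsf11a and Tnfrsf13c among them, 6 were tested. With all libraries edgeR called 0 of 6, with 2 at an unadjusted p under 0.05. Of all tested genes 4.32% were called and 15.1% had an unadjusted p under 0.05, so 0 called is no result about these lists. In the fit without muscle library 4, 1 of 6 was called, beside 12.4% of all genes. This was Tnfrsf21, the gene of death receptor 6, higher in muscle (log2 fold change 1.72, edgeR adjusted p = 0.0049, against 1.39 and adjusted p = 0.322 with all libraries). It had 1 count in muscle library 4, against 50 and 62 in the other muscle libraries and 15 to 37 in the lymph node libraries.

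For interleukin-7, 5 of 8 genes of its receptor and of the related cytokine TSLP were tested. By edgeR 0 of 5 were called, beside 4.32% of all tested genes, and 1 had an unadjusted p under 0.05, beside 15.1%. Il7r, the receptor chain, had 5, 0 and 3 counts in the muscle libraries and 3, 9 and 2 in the lymph node libraries. Il2rg, the common cytokine receptor chain of lymphocytes, had 28 of its 29 muscle counts in library 4. DESeq2 and limma-voom with all libraries also called 0 genes of these ligand, receptor and interleukin-7 lists. With muscle library 4 left out, 1 of 5 was called, beside 12.4% of all genes. This was Jak1, a kinase bound to many cytokine receptors, lower in muscle (log2 fold change -0.61, edgeR adjusted p = 0.0127).

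Of 33 adaptors, kinases and NF-kB genes downstream of the receptors, all tested, 3 were called lower in muscle, 1 higher and 29 neither way (median log2 fold change -0.02, and -0.25 without muscle library 4). That is 4 of 33 called, beside 4.32% of all tested genes. Nfkbia, the inhibitor that NF-kB induces against itself, measured 76.5 ± 25.6 CPM in the muscle libraries against 552 ± 167 CPM in the lymph node libraries (SD, n = 3 each), a log2 fold change of -2.79 ± 0.30 (edgeR adjusted p = 0.00114), and kept its call without any 1 library. Ripk1, a kinase recruited by TNF receptor 1, was at 29.7 ± 5.18 CPM in the muscle libraries against 77.9 ± 12.5 CPM in the lymph node libraries (-1.43 ± 0.24, adjusted p = 0.0101). Birc3, which encodes the ubiquitin ligase cIAP2 that works with TRAF2 and TRAF3, was at 40.1 ± 13.3 CPM in the muscle libraries against 121 ± 44.3 CPM in the lymph node libraries (-1.66 ± 0.35, adjusted p = 0.0273). Traf1, a TRAF2 partner that is abundant in activated lymphocytes, had 16, 12 and 12 counts in muscle libraries 2, 3 and 4, against 2, 1 and 5 in lymph node libraries 1, 2 and 3. Its level was 32.3 CPM in muscle library 4, which held the most leukocyte transcripts, and 8.44 and 9.22 CPM in muscle libraries 2 and 3 (log2 fold change 3.38 ± 0.78, adjusted p = 0.0447). Ripk1, Birc3 and Traf1 each lost the call when any 1 library other than muscle library 4 was left out (adjusted p up to 0.0663, 0.115 and 0.247). Leaving out 1 library gave log2 fold changes between -1.53 and -1.31 for Ripk1 and between -1.85 and -1.34 for Birc3, and that of Traf1 ran from 2.72 without muscle library 4 to 4.11 without lymph node library 3. When muscle library 4 was omitted, 6 genes of the list were called lower and 2 higher, 8 of 33 beside 12.4% of all genes. Tnfaip3 (log2 fold change -2.63), Nfkbie (-1.25) and Tank (-0.88) were then called lower as well, and Otud7b (0.72) higher.

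The listed partners Nfkb2, Relb and Birc2 were not called with or without muscle library 4. Nfkb2, whose product p100 is processed to p52 after NIK acts, measured 24.8 ± 14.9 CPM in the muscle libraries against 51.9 ± 10.5 CPM in the lymph node libraries (SD, n = 3 each; -0.92 ± 0.37, edgeR adjusted p = 0.268, and 0.131 without muscle library 4). Relb, the partner of p52, measured 27.3 ± 6.78 and 33.6 ± 3.86 CPM (-0.28 ± 0.29, adjusted p = 0.736), and Birc2, which encodes cIAP1, 78.3 ± 27.6 and 69.6 ± 1.77 CPM (0.11 ± 0.26, adjusted p = 0.91), muscle before lymph node. Without muscle library 4 the sign of Birc2 turned, to -0.16 (adjusted p = 0.634).

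In contrast to the members' values stood those of chemokine, cytokine and adhesion genes known to be induced in stroma through LTBR or TNF receptors, several of which are also induced by other signals. Of 16 listed, 11 were tested, 9 fell in muscle and 0 rose, with a median log2 fold change of -2.80, while 2.86% of all tested genes were called lower. Again 9 fell and 0 rose without muscle library 4, when 7.58% of all genes were called lower. The B cell chemokine Cxcl13 measured 14.8, 2.31 and 2.69 CPM in muscle libraries 2, 3 and 4, and 370.0, 341 and 410.2 CPM in lymph node libraries 1, 2 and 3 (-5.49 ± 0.48, edgeR adjusted p = 4.68e-04). Without muscle library 2 the same value was -7.25. Ptgs2, an enzyme of prostaglandin synthesis, measured 36.1 ± 10.6 CPM in the muscle libraries against 378 ± 28.8 CPM in the lymph node libraries (SD, n = 3 each; -3.31 ± 0.24, adjusted p = 2.21e-04). Il6 had 5, 0 and 0 counts in muscle against 320, 363 and 274 in lymph node, and Cxcl10 14, 1 and 0 against 308, 259 and 264. The chemokine Cxcl1 had 93, 95 and 0 counts in muscle against 2193, 2103 and 2356 in lymph node. The adhesion genes Icam1 (-1.99) and Vcam1 (-1.68) fell as well. Ccl2 and Enpp2 were tested and not called. Ccl19, a T cell chemokine below the filter, had 0 counts in muscle against 17 in lymph node. Bst1, also below the filter, lay the other way, with 3, 1 and 3 counts in muscle against 0, 1 and 1. Of the rest below the filter, Madcam1 had 0 counts against 2, Glycam1 5 against 9, and Ccl21a had 0 in both tissues. Sequence shared with other genes was checked for the members alone, so 0 counts of Ccl21a do not show absence. Between 7 and 9 of the list fell when 1 library was left out, the lowest count being without muscle library 3 or lymph node library 1 or 2. The list was chosen with earlier results of these data known, so its count is not independent evidence of its direction. Most immediate early genes were lower in muscle in the same libraries. Of 17 markers, 14 were lower in every muscle library than in any lymph node library, as were 13.7% of all tested genes. Jund, Hspa1a and Hspa1b overlapped between tissues. The 17, all detected in each library, summed to between 3435 and 4262 CPM in muscle and between 22440 and 24030 CPM in lymph node. Their part in these differences and in that of Nfkbia was not tested.

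**Figure D4:**
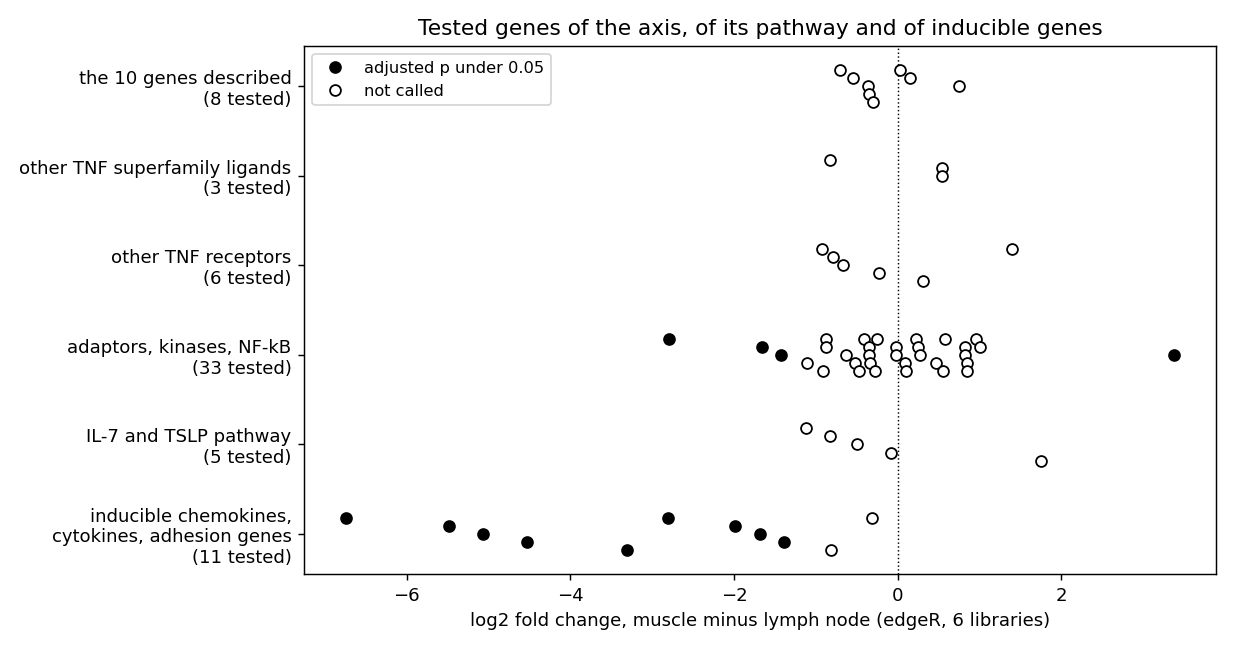
Log2 fold change of muscle minus lymph node of each tested gene, by list, with filled circles for genes at an adjusted p under 0.05. The 8 tested members lay between -0.71 and 0.75, while 9 of 11 inducible genes were called, all lower in muscle.

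Promoter sequence was looked at, as a description, in the members and in the listed genes of the pathway. The NF-kB consensus site (the kB motif, 10 bases, searched on both strands, overlapping matches counted once per promoter) was looked for in RefSeq promoters of 300 bases around each gene's start (GRCm38.p6). Promoters were found for 8 of the 10 members, all but Il7 and Tnfrsf11b, and 1 of 8, Traf3, held the motif. Of 11 inducible genes with a promoter 4 held it, namely Cxcl1, Cxcl10, Il6 and Madcam1, the last below the filter on low counts. Of 26 adaptor, kinase and NF-kB genes 8 held it, and of all 27025 genes 5.14%. A match is a description of the letters in this window and not evidence of binding. The Traf3 window lies at chr12:111166340-111166389 (plus strand), that of Cxcl1 at chr5:90891154-90891203 (plus strand), that of Il6 at chr5:30013050-30013099 (plus strand) and that of Nfkbia at chr12:55492647-55492696 (minus strand). They are shown as examples with a match, of which Traf3 was not called and the others were called lower in muscle. Cxcl13, Cxcl12, Icam1, Ptgs2, Ripk1 and Birc3 were called lower too, with no match in their promoters. Nfkb2, Rel, Map3k7 and Cyld held a match and were not called with or without muscle library 4. Tnfaip3, Nfkbie and Tank also held it and were called lower only without that library. Whether the motif goes with the level was not tested. Capitals mark the motif, and each window runs 5′ to 3′ in the direction of its gene.
Traf3: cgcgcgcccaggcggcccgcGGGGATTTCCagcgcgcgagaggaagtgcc
Cxcl1: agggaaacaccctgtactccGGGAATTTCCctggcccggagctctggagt
Il6: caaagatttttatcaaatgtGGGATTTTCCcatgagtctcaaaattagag
Nfkbia: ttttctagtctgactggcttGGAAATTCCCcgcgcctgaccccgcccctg
The motif began 10 bases before the annotated start in Traf3, 71 before it in Cxcl1, 44 before it in Il6 and 29 before it, on the other strand, in Nfkbia.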

How the data were processed

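The deposited table holds raw counts per gene symbol, 1 column per library. Per the submitters' processing notes, the authors used STAR 2.5.4 and featureCounts on mm10. No source used here gives the annotation release, strand setting or handling of multiply aligned reads. The labels' protocols describe oligo(dT) priming, PCR, transposase fragmentation and paired reads of 25 bases without molecular identifiers. The exact counting intervals and the floors therefore cover counting error only. The edgeR intervals also cover the spread between libraries. Lymph node columns matched sample titles. Muscle columns, numbered 2, 3 and 4, were used as muscle libraries without a link to single samples.

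Counts were tested with edgeR 4.0.16 in R 4.3.3 (filterByExpr, TMM scaling, glmQLFit and glmQLFTest on tissue alone, all 6 libraries, two-sided, Benjamini-Hochberg adjustment over all 10823 tested genes). Each SE is the absolute log2 fold change over the root of its F statistic. Alternatives used other scalings and filters, DESeq2 1.42.0, limma-voom (limma 3.58.1) a block by column number and fits without each library. The scripts were tested on simulated counts. GENCODE M21 (GRCm38) gave lengths and coordinates, and at most 4.77% of a member's 25-base words occur in other genes. Members and lists were chosen with earlier results of these data known. All members are named, with up to 4 called, non-overlapping genes per list by smallest p, and listed partner genes whatever their result. Icam1, Vcam1, Ccl2, Enpp2, Tnfrsf21, Jak1, Il2rg and Cxcl1 were named after their values were seen. So were Cxcl12, Rel, Map3k7, Cyld, Tnfaip3, Nfkbie, Tank, Otud7b, Bst1, Madcam1, Glycam1, Ccl21a and Tnfrsf13b.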

Additional observations from a re-analysis of the deposited data

How the results depend on the processing

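In all 19 alternatives 0 members were called, while the number of all genes called moved widely. It was 945 without a filter on low counts and 1366 with limma-voom and library weights, against 468 in the fit reported. Leaving out 1 library gave between 142 (without lymph node library 2) and 1391 (without muscle library 4). With muscle library 4 left out, a choice combined with other settings after the data were seen, it was 1394 with RLE scaling, 1430 with total-count scaling, 1065 with DESeq2 and 1318 with limma-voom. The cause was not tested. Ltbr, Tnfrsf1a, Traf2, Map3k14 and Il7 kept the sign of their difference in all alternatives that gave a value, and the smallest adjusted p among the members was 0.0593 (Tnfsf13b, limma-voom with library weights). Tnfsf13b was 0.05 on the log2 scale without muscle library 2, and Tnfrsf1b ran from -0.22 to 0.34 and Traf3 from -0.12 to 0.48. Total-count scaling without muscle library 4 shifted the median of all genes to 0.13. The muscle minus lymph node difference in the log2 ratio of Tnfsf11 to Tnfrsf11b lay between 0.75 and 2.01, the ratio itself being below 0 in each library. Column numbers 2 and 3 occur in both tissues, but no label says that they pair the libraries. Deviations from the tissue means correlated at -0.025 (number 2) and 0.020 (number 3) across genes. The muscle mean includes muscle library 4, which differed most, so these correlations cannot show whether the libraries pair. A fit with the column number as a replicate block, chosen after the data were seen, called 1530 genes and 0 members. By its construction it compares only libraries 2 and 3 of each tissue, so muscle library 4 does not enter its fold changes. Depth limits Tnfsf11, Tnfrsf11b and Il7, whose counts reach at most 19 per library, and every member in muscle library 4, where 3 counts are 8.06 CPM.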
